A study of Caenorhabditis elegans with 68 samples.

Results

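The FMRFamide-like peptide (flp) genes of Caenorhabditis elegans were followed through the RNA of newly hatched first-stage (L1) larvae from mothers kept at 300 or at 50 mM NaCl. Members were all genes named flp followed by a number, which gave 31 genes among the 30470 lines of the table. No measured value was used to choose them. The 48 libraries used here formed 14 groups, each a strain at 1 maternal NaCl level. Libraries of the same experiment are called a set, lettered D to G. Set D held strain MT12999, mir-85(n4117) II (called n4117), and the wild type N2 (called WT), with 2 libraries per group. Set E came from strain MHE324 and held the progeny of mothers heterozygous for n4117, with 3 libraries per group. Its homozygous larvae, mir-85(n4117)/mir-85(n4117), are called F1KO, and its heterozygous larvae are called F1het and carry n4117 over the balancer mIn1, with mIs14 and dpy-10(e128) on it. Set F held strain MHE339, mir-85(gcp109), with a deletion of the 3p strand of the microRNA, and 4 libraries per group. Set G held strain MHE310, hrg-1(gcp100) X, in which the seed match for mir-85 in hrg-1 was mutated, and the wild type N2, with 5 libraries per group. The labels give WT and N2 as the same strain, and the names keep their experiments apart. Every larva of set E thus carried n4117 and had a heterozygous mother. The larvae were synchronised without starvation, and the other 20 of the 68 samples are not analysed here.

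FLPs are short amidated peptides that neurons, and some other cells, release from dense core vesicles. A larger precursor is cut by proprotein convertases, trimmed and amidated, and the mature peptides act mostly on G protein-coupled receptors, often far from any synapse. In C. elegans they are known for roles in locomotion, feeding, sleep, egg laying, the sensing of oxygen and carbon dioxide, and signals from the nervous system to the gut. The RNA came from whole larvae, so fewer cells of a type and less RNA per cell cannot be told apart.

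Some libraries stood apart, and these were picked out after their values had been seen. Replicate 3 of N2 at 300 mM and replicate 1 of gcp100 at 300 mM held many sperm transcripts, with 4740 and 1502 TPM (each gene's share of a library's transcripts, corrected for gene length) summed over 35 msp genes, against at most 432 TPM in every other library, at replicate 5 of N2 at 300 mM. In 3 more libraries at 300 mM, more than 100 of the 7753 genes with a median of at least 10 TPM were listed at 0, with 414 in replicate 3 and 179 in replicate 5 of gcp100 and 208 in replicate 5 of N2, against at most 67 in every other library. All 5 libraries in doubt lie at 300 mM in set G, and results that rest on them are given with and without them. As a check of the labels, the level of hrg-1, a heme transporter gene and the mir-85 target studied, was 36.0 to 124 TPM in n4117 and 11.8 to 13.4 TPM in WT at 300 mM, and 27.8 to 54.3 TPM in gcp100 and 11.8 to 27.1 TPM in N2 at 300 mM. The groups overlapped in set E at 300 mM, with 40.0 to 52.1 TPM in F1KO and 26.7 to 48.7 TPM in F1het. They also overlapped in set E at 50 mM. At 50 mM gcp100 had 8.72 to 22.4 TPM and N2 8.01 to 32.7 TPM. The level of hrg-1 thus does not check the labels of those groups. Neuronal markers were present in every library, with a summed level of the 12 pan-neuronal markers between 786 and 1571 TPM.

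In the WBcel235 annotation the flp genes gathered on the X chromosome, which held 13 of the 31 (41.9%), against 13.6% of the protein-coding genes of the table. The rest lay on chromosomes III (5), IV (5), II (3), V (3) and I (2). On X, flp-28, flp-3 and flp-2 followed each other on the minus strand within 7932 bases, all inside the gene W07E11.1 on the opposite strand. All members have short coding sequences. The longest of each gene ran from 66 codons in flp-21 to 208 codons in flp-18, with a median of 95. A single annotated transcript was given for 20 of the 31. For 11 members another gene overlaps the locus on the opposite strand, among them daf-10 at flp-1 and romo-1 at flp-16. Whether the counting used the strand is not given in the sources used here, so levels at these 11 loci are uncertain. The overlap is limited to the ends of the genes for flp-19 with abl-1, flp-16 with romo-1, flp-11 with tmem-135, flp-33 with ntr-1 and flp-8 with F31F6.11.

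All flp genes except flp-23 were readily detected in these larvae. flp-23 was listed at 0 in 44 of the 48 libraries and reached at most 0.820 TPM, so it entered no test, and the other 30 entered every test. Ordered by their level in N2 at 50 mM, flp-15, whose peptides activate the receptor NPR-3, came first with 165, 269.6, 151, 401 and 294 TPM in replicates 1 to 5. It was followed by flp-17, a gene of the carbon dioxide-sensing BAG neurons, with 210.1, 163, 182, 274 and 248 TPM. Next came flp-1, the peptide gene of the AVK interneurons that shapes locomotion, with 227, 195, 209, 217 and 203 TPM. The ranges of these 3 genes overlapped, so their order is not set beyond the spread between libraries. flp-9, flp-24, flp-22, flp-16 and flp-11 followed with means between 152 and 207 TPM. At the low end stood flp-25 with 8.92 ± 3.86 TPM and flp-32 with 7.61 ± 3.79 TPM (mean ± SD, n = 5 each), whose ranges overlapped too. Between the ends, 20 members had means between 23.1 and 124 TPM.

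**Figure D1:**
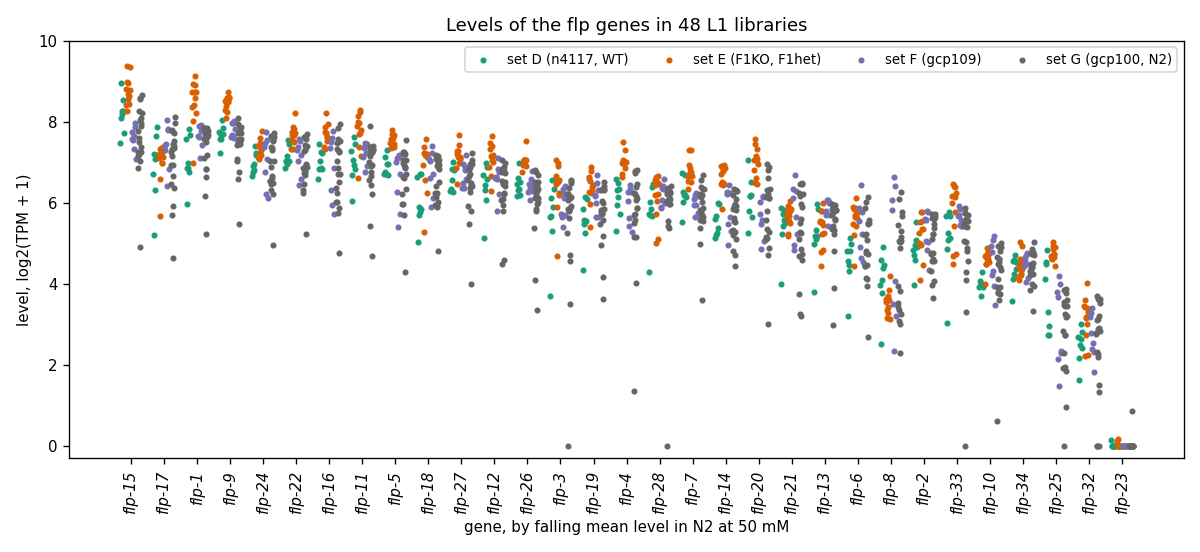
Level of each of the 31 flp genes in each of the 48 L1 libraries, as log2(TPM + 1), with 1 point per library and genes ordered by their mean in N2 at 50 mM. Points run from flp-15, with a mean of 256 TPM in N2 at 50 mM, to flp-23, listed at 0 in 44 libraries, and for flp-9 every library of set E lies above every other library.

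Maternal NaCl went with lower levels of 3 flp genes in N2 of set G. There 3 of the 30 flp genes tested were lower in larvae of 300 mM mothers (limma, adjusted p under 0.05 over all 15275 genes tested), and none was higher. Over all genes 4.3% were called, 2.17% lower and 2.13% higher. Differences are given on the log2(TPM + 1) scale, which understates changes of genes with low levels, as the value at 300 mM minus that at 50 mM. The log2 difference was negative for 30 of the 30 flp genes, with a median of -0.76, beside a median of -0.16 over all genes tested.

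flp-19 (X, 10604686 to 10605831, plus strand), a peptide gene active in the BAG neurons among others, had 35.2, 46.9, 11.4, 63.2 and 16.9 TPM in replicates 1 to 5 of N2 at 300 mM, against 91.2, 56.3, 84.0, 79.3 and 79.9 TPM at 50 mM. Only replicate 4 of the 300 mM group reached into the range of the 50 mM group. The means were 34.7 ± 21.3 and 78.2 ± 13.1 TPM (SD, n = 5 each), a log2 difference of -1.38 ± 0.35 (SE, limma adjusted p = 0.0298). flp-17 (IV, 17190204 to 17191891, minus strand) encodes ligands of the receptor EGL-6, which holds back egg laying in adults. Its level was 60.0, 99.5, 23.9, 167 and 80.9 TPM at 300 mM, against 210.1, 163, 182, 274 and 248 TPM at 50 mM. Again replicate 4 at 300 mM was the one library above the lowest value at 50 mM. The log2 difference was -1.54 ± 0.40 (SE, limma adjusted p = 0.034), the largest in size among the flp genes of this comparison. flp-14 (III, 12910510 to 12914783, plus strand), which encodes 1 peptide in several copies, had 25.4, 37.6, 20.9, 61.4 and 33.2 TPM at 300 mM and 78.8, 55.9, 59.7, 67.1 and 77.0 TPM at 50 mM. The same replicate overlapped the 50 mM group, and the log2 difference was -0.99 ± 0.27 (SE, limma adjusted p = 0.0456). flp-6, next in order of p, had 14.5, 20.97, 16.4, 44.2 and 5.49 TPM at 300 mM, against 69.9, 25.9, 43.5, 44.7 and 46.6 TPM at 50 mM. The groups of flp-6 overlapped through replicate 4 at 300 mM, and it did not pass (-1.34, limma adjusted p = 0.0721).

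**Figure D2:**
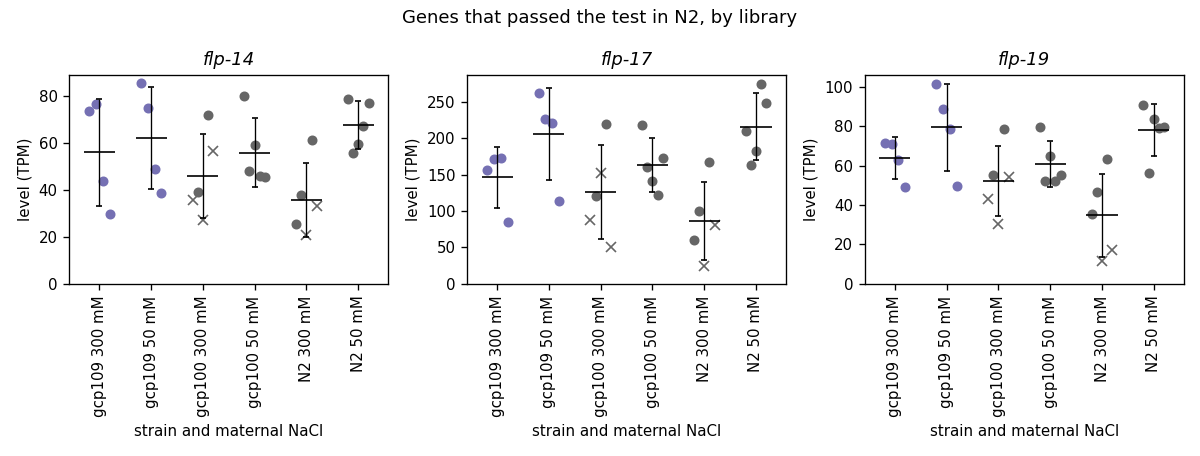
Level (TPM) of flp-14, flp-17 and flp-19 in every library of gcp109, gcp100 and N2 at 300 and 50 mM maternal NaCl, with bars for the mean ± SD and crosses for the 5 libraries in doubt. In N2 at 300 mM, 4 of the 5 libraries lie below all libraries at 50 mM for each of the 3 genes.

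Some of the members that did not pass in N2 are given by role, and not all are listed. Of the sleep peptide genes, flp-11 of the RIS neuron had a log2 difference of -0.95, and flp-13 and flp-24 of the ALA neuron had -0.71 and -0.88. Of the genes for ligands of NPR-1, a receptor that governs aggregation and oxygen responses, flp-18 had -0.76 and flp-21 -1.12. flp-8 of the oxygen-sensing URX neurons had -1.38, and flp-10, whose peptide also acts on EGL-6, had -0.28. flp-7 and flp-2, which are known for signals to the intestine in fat loss and in oxidative stress, had -0.62 and -0.87, and flp-1 had -0.84. flp-20 of the touch receptor neurons had -0.57, flp-15 -0.74 and flp-5 -0.70. Of the members outside these roles, flp-16 had -1.10. The adjusted p of these members lay above the threshold, and 14 of the 30 had an unadjusted p under 0.05, the 3 that passed included, beside 24.4% of all genes.

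These calls depended on single libraries. Leaving out 1 library of N2 at a time gave between 0 and 7 flp calls. The 7 came without replicate 4 at 300 mM, 3 passed without replicate 2 at 300 mM, and 1 without replicate 1 at 300 mM or replicate 2 at 50 mM. Leaving out any other library gave 0. Without the 2 libraries rich in sperm transcripts no flp gene passed (5.34% of all genes did) and 5 had an unadjusted p under 0.05, with 0.0524 as the smallest limma adjusted p, at flp-19, and the median over the flp genes was -0.43, with 28 of 30 negative. Without all 5 libraries in doubt, flp-17 alone passed, at -1.07 ± 0.30 (SE, limma adjusted p = 0.0442), beside 3.25% of all genes called lower. There the log2 difference of flp-19 was -0.70 and that of flp-14 -0.77, and the median over the flp genes was -0.39, with 30 of 30 negative, beside -0.02 over all genes.

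Values of the rest of the peptide pathway and of tissue markers stand beside this comparison. Beside the flp genes in N2, 0 genes passed in the lists for peptide processing and amidation (11 tested, median log2 difference -0.76), dense core vesicle release (11 tested, -0.74), FLP receptors (19 tested, -0.86), peptidases (8 tested, -0.26) and other neuropeptide genes of the nlp family (29 tested, -0.84). Among processing genes the smallest p belonged to pghm-1, an amidation enzyme gene, at -1.18 ± 0.38 (SE, limma adjusted p = 0.0789). Among receptors it belonged to npr-22, at -1.17 ± 0.37 (SE, limma adjusted p = 0.0775), with 19 of 19 receptor genes negative. Among genes of vesicle release it belonged to ida-1, a membrane protein of dense core vesicles, at -1.06 ± 0.38 (SE, limma adjusted p = 0.113). The pan-neuronal list had a median of -0.63, with 11 of 12 negative. Its member tbb-1, a beta tubulin gene that other tissues express too, rose, at 0.93 ± 0.22 (SE, limma adjusted p = 0.021). Markers of other tissues went both ways, with median log2 differences of -1.40 for the pharynx (5 of 5 negative, 0 called), -0.54 for body wall muscle (6 of 6 negative, 1 called lower), 0.02 for the intestine (4 of 8 negative, 0 called) and 2.47 for the hypodermis (1 of 3 negative, 0 called). The 5 germline markers had a median of 2.60, with 5 of 5 positive and 1 called higher. The summed sperm markers were 28.7 to 5018 TPM in N2 at 300 mM and 4.93 to 9.43 TPM at 50 mM, and the summed oocyte and eggshell markers 10.1 to 2791 TPM at 300 mM and 2.93 to 11.1 TPM at 50 mM. The part of these tissues and transcripts in the flp result was not tested beyond leaving out the libraries above. In the other 18 comparisons no gene of the 5 pathway lists passed.

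In gcp100, the other strain of set G, 0 of 30 flp genes passed between 300 and 50 mM, beside 0.622% of all genes tested, and 2 had an unadjusted p under 0.05, beside 13.1%. The log2 difference was negative for 30 of 30, with a median of -0.44, beside -0.15 over all genes. The smallest p belonged to flp-21, with 33.2, 24.8, 12.5, 74.3 and 8.57 TPM in replicates 1 to 5 at 300 mM, against 87.8, 38.2, 71.2, 44.5 and 47.4 TPM at 50 mM. The groups overlapped through replicate 4 at 300 mM, and the log2 difference was -1.20 ± 0.52 (SE, limma adjusted p = 0.332). flp-4 had 34.96, 44.4, 1.55, 74.4 and 51.3 TPM at 300 mM and 73.4, 46.7, 51.6, 108.4 and 106 TPM at 50 mM, with replicate 3 at 300 mM far below the rest and a log2 difference of -1.41 ± 0.66 (SE, limma adjusted p = 0.367). flp-8 and flp-3 followed at -0.99 and -1.29. flp-3 was listed at 0 in replicate 5 at 300 mM, as were flp-25, flp-28, flp-32 and flp-33. With the sperm-rich libraries left out the gcp100 median was -0.35, with 29 of 30 negative. Without the 5 libraries in doubt it was 0.03, with 13 of 30 negative, and the log2 difference of flp-3 was 0.17. That fit kept only replicates 2 and 4 of gcp100 at 300 mM, whose summed flp levels were 2001 and 3150 TPM.

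In gcp109 of set F, 0 of 30 flp genes passed in the unpaired fit, beside 1.35% of all 14102 genes tested, and 0 had an unadjusted p under 0.05, beside 14.9%. The median log2 difference was -0.21, with 26 of 30 negative, beside -0.02 over all genes. Same-numbered gcp109 libraries deviated together, and with the replicate number as a block 5 of the 30 were called lower at 300 mM, beside 6.33% of all genes. These were flp-8 at -0.65 ± 0.11 (SE, limma adjusted p = 0.0159), flp-17 at -0.48 ± 0.09 (SE, limma adjusted p = 0.0185), flp-27 at -0.33 ± 0.07 (SE, limma adjusted p = 0.0345), flp-21 at -0.40 ± 0.10 (SE, limma adjusted p = 0.0439) and flp-12 at -0.32 ± 0.08 (SE, limma adjusted p = 0.0497). flp-17 had 156, 171, 173 and 84.6 TPM in replicates 1 to 4 at 300 mM, against 261, 227, 221 and 114 TPM at 50 mM, lower in 4 of 4 pairs while the groups overlapped. flp-8 had 55.5, 66.0, 10.4 and 4.08 TPM at 300 mM and 99.2, 83.9, 15.9 and 8.19 TPM at 50 mM, and flp-27 had 81.9, 89.4, 122 and 80.8 TPM at 300 mM and 112, 118, 145 and 94.6 TPM at 50 mM. Both were lower in 4 of 4 pairs, as were 14 of the 30 flp genes tested, beside 20.0% of all genes, and 0 were higher in 4 of 4, beside 17.6%. In the unpaired fit the difference of flp-8 turned to 0.05 without replicate 4 at 300 mM.

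**Figure D3:**
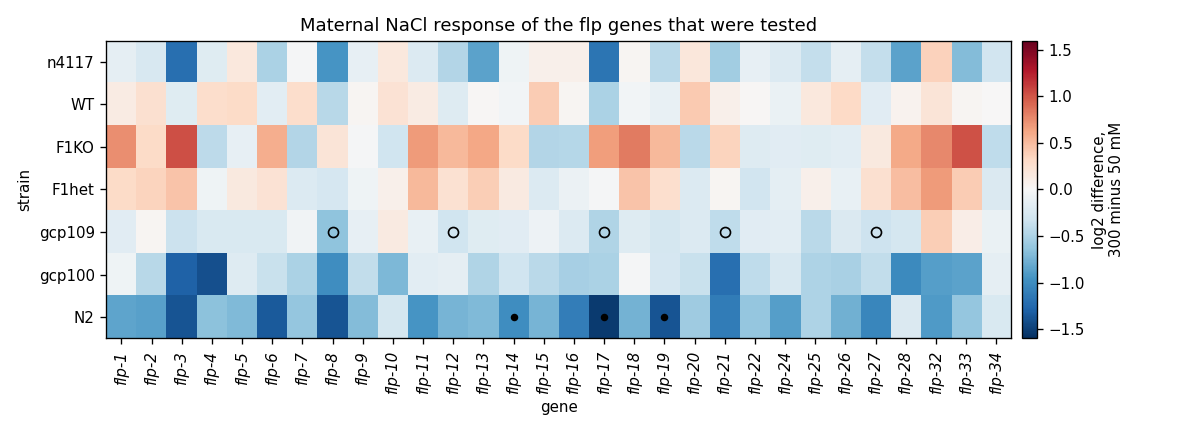
Log2 difference of the mean log2(TPM + 1), 300 minus 50 mM maternal NaCl, for the 30 flp genes tested (columns) in each strain (rows), with blue for lower at 300 mM. Filled dots mark the 3 calls of N2, open circles the 5 calls of gcp109 with the replicate block, and the N2 row is blue for 30 of 30 genes.

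The strains of sets F and G were also compared directly, gcp100 and gcp109 each against the same N2 libraries. At 300 mM, 0 of 30 flp genes passed in gcp109 against N2, beside 1.45% of all 16327 genes, and 7 had an unadjusted p under 0.05, beside 17.7%. The log2 difference (gcp109 minus N2) was positive for 30 of 30, with a median of 0.64, beside 0.16 over all genes, while it was negative for 6 of 30, with a median of 0.30, once the sperm-rich pair of libraries was left out and for 7 of 30, with a median of 0.19, once all 5 in doubt were. flp-19 came first, with 71.7, 71.3, 63.1 and 49.1 TPM in gcp109 at 300 mM, against the N2 values above. Its groups overlapped, since replicate 4 of N2 stood higher than the lowest gcp109 values, and the log2 difference was 1.09 ± 0.34 (SE, limma adjusted p = 0.117). It passed without replicate 2 of N2 at 300 mM (limma adjusted p = 0.0473) and without replicate 4 (limma adjusted p = 0.0204). flp-6, flp-17 and flp-9 followed at 1.10, 0.95 and 0.71. gcp109 is another set than N2, so strain and set cannot be told apart. At 50 mM, 0 of 30 passed in gcp109 against N2 (beside 0.0122%), 0 had an unadjusted p under 0.05 (beside 1.04%), and the median log2 difference was -0.04.

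In gcp100 against N2, 0 of 30 flp genes passed at 300 mM or at 50 mM, beside 0.0% of all genes at either level. At 300 mM 1 had an unadjusted p under 0.05, flp-19, at 0.76 ± 0.35 (SE, limma adjusted p = 0.777), beside 5.76% of all genes, and 0 had one at 50 mM, beside 0.334%. The median log2 differences (gcp100 minus N2) were 0.23 at 300 mM and -0.21 at 50 mM. At 300 mM the sign depended on the libraries, with a median of -0.13 and 18 of 30 negative when the sperm-rich ones were left out, and 0.29 and 4 of 30 negative without the 5 in doubt, against 8 of 30 negative with all. Without the 5 in doubt, replicates 2 and 4 of gcp100 and replicates 1, 2 and 4 of N2 remained at 300 mM. At 50 mM flp-19, flp-22 and flp-24 were lower in gcp100 in 5 of 5 same-numbered pairs, beside 5.09% of all genes, and 0 flp genes were higher in 5 of 5, beside 1.88%. The interaction, the NaCl difference of the mutant minus that of N2, was tested too, and 0 of 30 passed for gcp109 or for gcp100 (beside 0.0% of all genes in both). In each of them 1 gene, flp-19, had an unadjusted p under 0.05, with an interaction of 1.09 ± 0.48 (SE, limma adjusted p = 0.873) for gcp109 and 1.11 ± 0.49 (SE, limma adjusted p = 1.00) for gcp100. Over all genes 3.18% had such a p for gcp109 and 1.22% for gcp100. The median interaction over the flp genes was 0.31 for gcp100, with 6 of 30 negative. It was -0.04 with 17 of 30 negative when the sperm-rich libraries were left out, and 0.47 with 2 of 30 negative without the 5 in doubt. For gcp109 the median was 0.66, with 1 of 30 negative. It was 0.26 with 6 of 30 negative without the sperm-rich libraries, and 0.20 with 4 of 30 negative without the 5 in doubt. Neither way of leaving out libraries gave a flp call, with 0 of 30 in both interactions. The N2 call of flp-19, flp-17 and flp-14 was thus not shown to differ from the response of either mutant.

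In set D, 0 of 30 flp genes passed between 300 and 50 mM in n4117 (beside 0.0468% of all 14969 genes) or in WT (beside 0.0%). In either strain 0 had an unadjusted p under 0.05, beside 12.2% of all genes in n4117 and 9.31% in WT. The medians were -0.22 in n4117 and 0.03 in WT, beside 0.16 and 0.09 over all genes. Rescaling by median ratios moved the medians over all genes to -0.01 in both, and there the flp medians were -0.42 in n4117, with 29 of 30 negative against 23 before, and -0.09 in WT, with 18 of 30 negative against 10 before. Leaving out replicate 2 of n4117 at 300 mM turned the sign of 14 of the 30 n4117 differences. flp-17 had 104.4 and 35.8 TPM in n4117 at 300 mM, against 146 and 133 TPM at 50 mM, with both 300 mM libraries below both 50 mM libraries and a log2 difference of -1.17 ± 0.58 (SE, limma adjusted p = 0.464). In n4117, 6 members had such separate groups with the 300 mM libraries lower, beside 11.4% of all genes. In WT flp-17 had 78.3 and 199 TPM at 300 mM and 137 and 231 TPM at 50 mM, with overlapping groups. In WT flp-19 had 37.5 and 69.4 TPM at 300 mM and 45.9 and 67.1 TPM at 50 mM, and its groups overlapped too. The smallest flp p in WT belonged to flp-5, at 0.30 ± 0.23 (SE, limma adjusted p = 0.738). The interaction, n4117 minus WT, passed for 0 of 30 (beside 0.0%), with 0 at an unadjusted p under 0.05, beside 1.16% of all genes.

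In set E, whose larvae all had heterozygous mothers, 0 of 30 passed between 300 and 50 mM in F1KO (beside 0.0259% of all 15453 genes) or in F1het (beside 0.00647%). F1KO had 7 flp genes at an unadjusted p under 0.05, beside 11.8% of all genes, and F1het 0, beside 11.4%. With the replicate number as a block 0 of 30 passed in either, beside 1.48% of all genes in F1KO and 1.1% in F1het. The median log2 difference was 0.26 in F1KO, with 17 of 30 positive, and 0.11 in F1het, with 18 of 30 positive. Over all genes the medians were 0.03 and -0.03. The F1KO differences went both ways, from -0.47 at flp-7 to 1.03 at flp-3. flp-16 had 165, 214 and 159.9 TPM in replicates 1 to 3 at 300 mM, against 233, 297 and 211 TPM at 50 mM, with the lowest 50 mM library inside the range of the 300 mM group and a log2 difference of -0.45 ± 0.16 (SE, limma adjusted p = 0.33). flp-3 had 88.0, 100.3 and 132 TPM at 300 mM and 24.6, 58.2 and 91.3 TPM at 50 mM, with replicate 1 at 50 mM far below the rest and a log2 difference of 1.03 ± 0.37 (SE, limma adjusted p = 0.345). Within same-numbered pairs of F1KO, 11 flp genes were higher and 10 lower at 300 mM in 3 of 3 pairs, beside 23.4% and 20.6% of all genes, among them flp-1, flp-3, flp-11 and flp-19 on the higher side and flp-4, flp-7, flp-15, flp-16 and flp-20 on the lower. Between F1KO and F1het, 0 of 30 passed at 300 mM (beside 0.0194%) or at 50 mM (beside 0.0194%). At 300 mM, which was taken as paired, 0 of 30 passed with the block too, beside 0.0324%. At either level 0 had an unadjusted p under 0.05, beside 5.66% of all genes at 300 mM and 3.14% at 50 mM. The medians (F1KO minus F1het) were -0.12 at 300 mM, with 25 of 30 negative, and -0.14 at 50 mM, with 21 of 30 negative. Over all genes they were 0.04 and -0.02. The interaction passed for 0 of 30 (beside 0.0%), also with 0 at an unadjusted p under 0.05, beside 2.39% of all genes.

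The largest difference between genotypes within a set belonged to flp-25 (III, 9361528 to 9365380, plus strand). At 300 mM it had 16.4 and 21.4 TPM in n4117, against 5.68 and 8.93 TPM in WT. At 50 mM it had 22.1 and 27.7 TPM in n4117 and 6.81 and 5.68 TPM in WT. The groups did not overlap at either level, and flp-25 was the one flp gene with both n4117 libraries above both WT libraries, at 300 mM beside 16.4% and at 50 mM beside 6.25% of all genes. The log2 difference (n4117 minus WT) was 1.28 ± 0.27 (SE, limma adjusted p = 1.00) at 300 mM and 1.83 ± 0.27 (SE, limma adjusted p = 0.748) at 50 mM, so it did not pass in either. The unadjusted limma p was 0.00186 at 300 mM and 0.0002 at 50 mM. No flp gene passed in these comparisons, beside 0.02% of all genes at 300 mM and 0.0134% at 50 mM, and 3 flp genes at 300 mM and 1 at 50 mM had an unadjusted p under 0.05, beside 2.20% and 1.32%. The other flp genes lay mostly lower in n4117. The difference was negative for 29 of 30 at 300 mM, with a median of -0.40, and for 25 of 30 at 50 mM, with a median of -0.22, beside medians of 0.03 and -0.05 over all genes. At each level 5 members had both n4117 libraries below both WT libraries, flp-2, flp-8, flp-13, flp-24 and flp-28 at 300 mM, beside 8.43% of all genes, and flp-2, flp-6, flp-9, flp-12 and flp-24 at 50 mM, beside 13.1%. Without replicate 2 of n4117 at 300 mM the sign of 8 of the 30 differences at 300 mM turned. flp-25 was also high in all of set E, with 20.9 to 32.0 TPM in its 12 libraries. Over the 16 libraries of larvae that carry n4117 on at least 1 chromosome the level of flp-25 was 16.4 to 32.0 TPM with a median of 24.5, and over the other 32 it was 0 to 17.3 TPM with a median of 7.45. Of those 32 libraries, 1 exceeded the lowest n4117 carrier. In gcp109, the other mir-85 allele, flp-25 had 12.9, 11.7, 3.47 and 1.78 TPM at 300 mM and 17.3, 14.99, 3.89 and 4.07 TPM at 50 mM, which overlapped N2. This pattern across sets was found by looking at the values and has no test, and allele and strain background cannot be told apart in it, since MT12999 and MHE324 share the allele.

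flp-8 varied widely between libraries of 1 group. In N2 it had 13.2, 7.12, 3.95, 32.5 and 35 TPM at 300 mM, against 76.6, 8.58, 38.7, 49.9 and 53.8 TPM at 50 mM, and in gcp109 replicates 1 and 2 stood far above replicates 3 and 4 at both NaCl levels. The summed hypodermis markers were high in the same gcp109 libraries, with 472, 371, 98.0 and 105 TPM at 300 mM and 312, 315, 76.6 and 55.7 TPM at 50 mM. Of the 7 hypodermis markers, 1 passed the filter of the gcp109 fit and 3 that of set E or set G. These sums may thus rest on few genes. Many other flp genes were also higher in replicates 1 and 2 than in replicates 3 and 4 of gcp109 at both levels. Among them were flp-5, flp-6, flp-16, flp-18, flp-21, flp-24 and flp-25, while flp-9, flp-13 and flp-27 were not. The pan-neuronal sum was split the same way, with 1282, 1279, 1134 and 1070 TPM at 300 mM and 1571, 1488, 1243 and 978 TPM at 50 mM. In N2 at 50 mM the hypodermis sums were 330, 55.0, 152, 149 and 222 TPM, beside the flp-8 levels above. In gcp100 at 50 mM they were 239, 55.3, 168, 196 and 206 TPM, with 67.2, 9.27, 32.4, 28.6 and 31.9 TPM of flp-8. In both strains replicate 1 was the highest and replicate 2 the lowest for each measure. At 300 mM in set G the hypodermis sum and flp-8 were not high in the same libraries throughout. Replicate 3 of N2 at 300 mM had the highest hypodermis sum there, 1498 TPM, and the lowest flp-8 level of its group. In gcp100 at 300 mM replicate 5 had a sum of 401 TPM with 7.52 TPM of flp-8, while replicate 4 had 299 TPM with 42.9 TPM. Replicate 3 of N2 and replicate 5 of gcp100 are among the libraries in doubt. Of the N2 libraries not in doubt, replicate 1 had 324 TPM with 13.2 TPM of flp-8, and replicate 4 had 312 TPM with 32.5 TPM. In the 12 libraries of set E, flp-8 stayed between 7.77 and 17.3 TPM, and the hypodermis sum between 11.5 and 78.4 TPM. The part of this tissue in the flp-8 level was not tested.

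**Figure D4:**
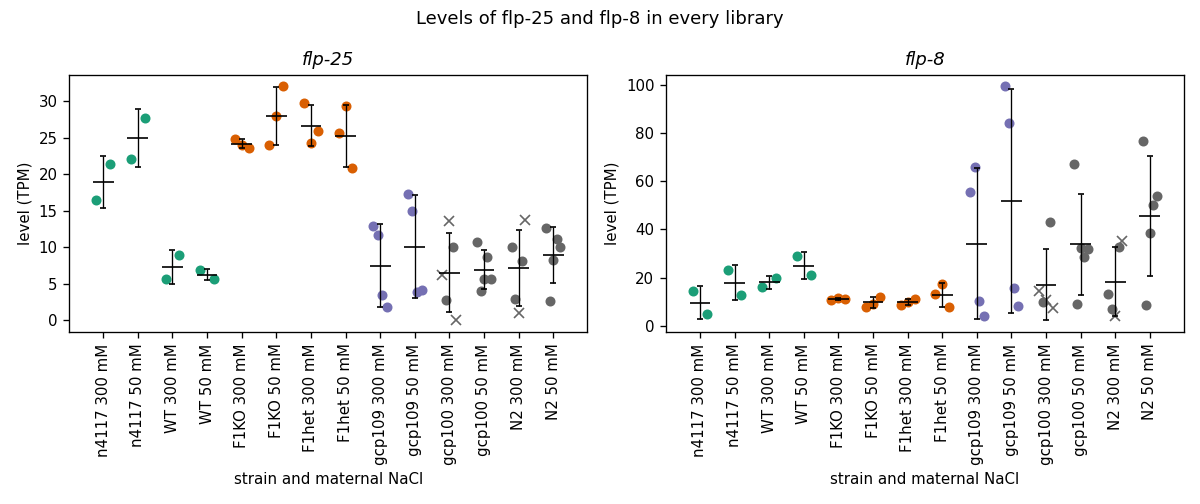
Level (TPM) of flp-25 (left) and flp-8 (right) in every library of the 14 groups, coloured by set, with bars for the mean ± SD and crosses for the 5 libraries in doubt. flp-25 lies at 16.4 to 32.0 TPM in n4117, F1KO and F1het, and flp-8 spreads from 4.08 to 99.2 TPM within gcp109.

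The summed level of the 31 flp genes separated set E from most other libraries. It was 2896 to 4411 TPM in the 12 libraries of set E (median 4015), against 585 to 3599 TPM in the other 36 (median 2467). The pan-neuronal markers did not follow, with sums of 817 to 1045 TPM in set E and 786 to 1571 TPM elsewhere. The ratio of the flp sum to the pan-neuronal sum was 3.38 to 5.14 in set E and 0.745 to 2.82 in the rest, without overlap. The sums of nlp genes and of FLP receptors had medians of 3301 and 246 TPM in set E, against 2282 and 297 TPM elsewhere. Members differed in this. The ratio of medians, set E over the other sets, was 3.00 for flp-25, 2.23 for flp-20, 2.08 for flp-1, 1.99 for flp-14 and 1.97 for flp-15, and it was 0.922 for flp-17, 0.853 for flp-13 and 0.537 for flp-8. For flp-9 alone, with 271 to 425 TPM in set E and 43.7 to 270.5 TPM elsewhere, every library of set E lay above every other. Set E differs from the rest in strain, in the genotype of the mother and in its experiment, which cannot be told apart, so no test was made.

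**Figure D5:**
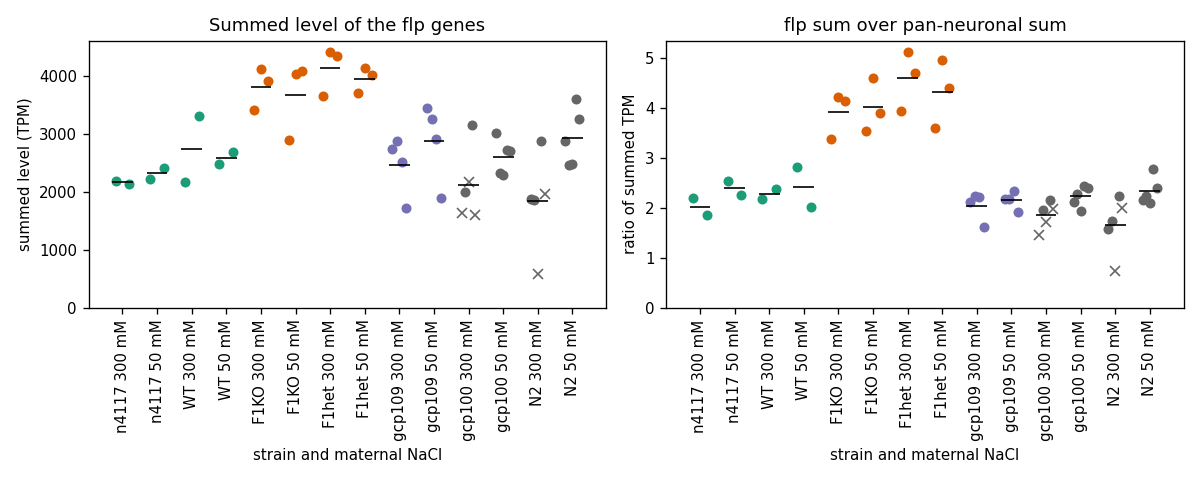
Summed level of the 31 flp genes (left, TPM) and its ratio to the summed level of 12 pan-neuronal markers (right) in every library, with bars for group means and crosses for the 5 libraries in doubt. The ratio is 3.38 to 5.14 in the 12 libraries of set E and at most 2.82 in the other 36.

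Within set G the flp sum was 2109 ± 631 TPM in gcp100 at 300 mM and 2602 ± 303 TPM at 50 mM, and 1831 ± 813 TPM in N2 at 300 mM and 2931 ± 495 TPM at 50 mM (mean ± SD, n = 5 each). In N2 at 300 mM it was lowest in replicate 3, at 585 TPM, the library with most sperm transcripts, and highest in replicate 4, at 2867 TPM, which lay within the range of the 50 mM group. The libraries not in doubt at 300 mM had 2001 and 3150 TPM in gcp100, and 1880, 1861 and 2867 TPM in N2. In gcp109 it was 2459 ± 513 TPM at 300 mM and 2870 ± 694 TPM at 50 mM (SD, n = 4 each). It was lower at 300 mM in 4 of 4 same-numbered pairs.

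Members also traded places within groups. In single libraries most of flp-15, flp-20, flp-4, flp-7 and flp-16 were high where most of flp-1, flp-3, flp-11, flp-17 and flp-33 were low. Not every gene followed in each library. In replicate 5 of gcp100, flp-7 was the lowest of its group at 300 mM, with 30.4 TPM. At 50 mM flp-17 was not low in that replicate, with 173 TPM. Replicate 2 of n4117 at 300 mM held 496 TPM of flp-15, 133 TPM of flp-20, 61.8 TPM of flp-1 and 12.1 TPM of flp-3, while replicate 1 of that group held 176, 37.3, 189.9 and 49.6 TPM of the same genes. Replicate 1 of F1KO at 50 mM was of the same kind, with 501 TPM of flp-15 and 126 TPM of flp-1, against 374 and 428 TPM in its replicate 3. The ratio of flp-15 to flp-1 was 0.620 to 8.02 over the 48 libraries, with a median of 1.04. It was above 3 in 5 libraries, with 8.02 in n4117 at 300 mM, 3.96 in F1KO at 50 mM, 4.36 in gcp100 at 300 mM, and 3.87 and 3.32 in gcp100 at 50 mM. In these 5 libraries the summed pharynx markers were 65.1, 198, 82.0, 171 and 349 TPM, against a median of 733 TPM over all 48. These libraries belong to different strains and to both NaCl levels, they were picked after their values were seen, and the part of pharynx tissue in the ratio was not tested.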

How the data were processed

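The authors deposited 1 table of TPM for all samples, per the file headers, and its columns were matched to samples by name (0 matched none). Per the labels' protocols, RNA above 200 nucleotides with a RIN above 8 was depleted of ribosomal RNA and made into strand-specific libraries. Per the submitters' processing notes, the builds ce11 and WBcel235 and bedtools were used. How reads were aligned and counted, and whether by strand, is not given in the sources used here. TPM carry no sequencing depth, which is therefore unknown here, and precision rests on how far libraries of a group differ. TPM summed to 953862 to 999109 per library. The set G values stood displaced from their gene names for 20693 of 30470 lines and were moved back by name, which took the correlation of their mean log2(TPM + 1) with the other sets across genes to 0.988 (0.593 as deposited). The lines of the flp genes were displaced in 0 cases.

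Differences of log2(TPM + 1) were tested with limma 3.58.1 in R 4.3.3, two-sided, with a variance trend, in 1 fit per set and 1 over sets F and G. Genes with at least 1 TPM in as many libraries as the smallest group has were tested, with Benjamini-Hochberg adjustment over all 14102 to 16327 genes and a threshold of 0.05. The 19 comparisons were 7 of NaCl levels, 8 of genotypes and 4 interactions. Named are the flp genes that passed or, where fewer than 4 passed, the members with the smallest p up to 4, and from each pathway list the genes that passed or up to 3 with the smallest p. Not all genes that meet this rule are named. Genes named for levels or patterns were chosen by their values. The labels call the libraries biological replicates but do not tie them to separate cultures. The p-values thus measure the spread between these samples, which may be in part technical. Same-numbered libraries deviated together in gcp109 (r = 0.563 to 0.626 for their deviations from the group means), F1KO, F1het, F1KO against F1het at 300 mM and gcp100 against N2 at 50 mM, and these were taken as paired. The fit with a replicate block used the block in every comparison it could estimate, those not taken as paired included. The fit was tested on simulated data. Alternatives were the pseudocount, the filter, the scaling, the block, 1 fit over all libraries, leaving out each library and leaving out the libraries in doubt. Gene positions are from the Ensembl annotation of WBcel235. The members, lists and tests were chosen with earlier results of these data known.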

Additional observations from a re-analysis of the deposited data

Results flagged for a closer look

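In groups of 4 or 5 libraries, the gap of the highest or lowest library to its neighbour was set against the range of the group (Dixon's test at its 95% level). Of 181 combinations of a flp gene and a group and 6 summed flp levels, 7 held such a library, and chance alone gives about 1 in 20. The 5 groups in which flp-23 was listed at 0 throughout could not be tested. In N2 at 300 mM, replicate 4 had 0.820 TPM of flp-23, with 0 TPM in the other libraries of the group. In gcp100 at 50 mM, replicate 1 had the highest flp-6 level, 63.4 TPM, with the next library at 36.5 TPM. In gcp100 at 300 mM, replicate 4 had 42.9 TPM of flp-8, with the next at 14.5 TPM. Replicate 5 of that group was listed at 0 TPM for flp-28 and at 0 TPM for flp-33, with the next lowest libraries at 64.8 and 32.5 TPM, and it is 1 of the libraries with many genes listed at 0. In gcp109 at 300 mM, replicate 3 had 247 TPM of flp-9, above the next at 201 TPM, and replicate 4 had 55.1 TPM of flp-12, below the next at 94.7 TPM.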

How the results depend on the processing

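The number of flp genes called stayed within 1.5 times the main count in the comparisons and settings not named here. In N2 between 300 and 50 mM, where 3 were called, beside 4.3% of all genes, the count was 3 with a pseudocount of 0.1 (beside 3.91%), 2 after rescaling (flp-17 and flp-19, beside 5.09%), 0 without the filter (beside 1.83%), 5 with the replicate block (flp-6, flp-14, flp-16, flp-17 and flp-19, beside 7.55%), 9 in 1 fit over all 48 libraries (beside 21.1%), and 0 to 7 leaving out 1 library. Alternatives added after seeing the data gave 0 without the 2 libraries rich in sperm transcripts (beside 5.34%) and 1 without the 5 in doubt (beside 7.27%). The cause of these shifts was not tested. The limma adjusted p of flp-17 in N2 was 0.0259 with the block. In gcp109 the replicate block gave 5 calls, against 0 without it, and beside these it changed no count. Same-numbered N2 libraries correlated at 0.0273 to 0.271 and were not taken as paired. No paired analysis was possible for gcp109 against N2, because the block there holds 1 strain each and the difference could not be estimated. Leaving out 1 library gave 0 to 1 calls for gcp109 against N2 at 300 mM and 0 in every other comparison. Of the 570 combinations of a flp gene and a comparison, 284 changed sign in at least 1 setting, and 0 of these were called in the main or the changed setting. In gcp100 between 300 and 50 mM, 17 of 30 did so without the 5 libraries in doubt, which left replicates 2 and 4 at 300 mM. Of the 80 combinations followed singly, mainly those with the smallest p, 3 changed sign, flp-8 in gcp109 without replicate 4 at 300 mM (0.0491, leaving out other libraries down to -1.28), flp-3 in gcp100 without the 5 libraries in doubt (0.17) and flp-14 in gcp109 against N2 at 50 mM without gcp109 replicate 4 (0.0203, others down to -0.35), none of which had passed. Rescaling put the mean summed flp level of n4117 at 2004 TPM at 300 mM and 2478 TPM at 50 mM, against 2160 and 2313 TPM. Depth is unknown, groups hold 2 to 5 libraries, and low genes such as flp-25 and flp-32 are measured least surely.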
